A study of Drosophila melanogaster with 31 samples.

Results

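Histone H3 trimethylated at lysine 9 (H3K9me3) is the mark of constitutive heterochromatin. In flies it is written mainly by the methyltransferases Su(var)3-9 and Eggless and read by the heterochromatin protein HP1a, and it packages the repeats and transposons around the centromeres as well as the transposon insertions that Piwi and its piRNAs find in the ovary. The regions described here are all H3K9me3 peaks on scaffolds of the dm3 genome whose name ends in Het. These 6 scaffolds (2LHet, 2RHet, 3LHet, 3RHet, XHet and YHet) hold pericentric or Y-linked sequence that was assigned to a chromosome but not joined to its euchromatic arm. The rule found 2182 peaks among the 7718 of the series, namely 1107 of the 4643 peaks listed for mod07570/+ ovaries and 1075 of the 3075 listed for mod07570/L8 ovaries.

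The study set ovaries of the transheterozygous mutant mod07570/L8 against those of the heterozygous control mod07570/+, to ask whether the nucleolin homolog Modulo (Mod) bears on H3K9me3. As the study describes them, the mod07570 allele carries a P-element and retains some function, while modL8 lacks function because sequence near the end of 3R is deleted. Both groups carry mod07570, and they differ in modL8 against a + chromosome. The sample title of the control gives mod07570 alone, and its + comes from the series' design text and from the header of its peak table. No age of the flies is given in the sources used here. Chromatin from whole ovaries, with germline and somatic cells together, was precipitated with an antibody against H3K9me3. Each genotype is represented by 1 sequenced precipitate and its 1 input. There is therefore no replicate error, no test between the genotypes was possible, and every value below describes these libraries.

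The libraries differed in depth. MACS2, the peak caller, used 6187044 ChIP reads of mod07570/+ and 1138939 of mod07570/L8 after it had removed reads at the same position, a difference of 5.43-fold. These were 29.8% and 37.1% of the uniquely mapped ChIP reads. The mean number of ChIP fragments expected over a base of the genome was 11.5 in mod07570/+ and 2.08 in mod07570/L8. A weak or broad region can therefore pass the caller's q cut-off in mod07570/+ and miss it in mod07570/L8 at the same level of the mark, so "kept" and "lost" are used here only for a mod07570/+ peak that does or does not share at least 1 bp with a listed mod07570/L8 peak.

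The number of peaks on the Het scaffolds was almost the same in the lists of both genotypes, whereas the length they covered was not. The 1107 mod07570/+ peaks covered 4816 kb and the 1075 mod07570/L8 peaks covered 1466 kb. Relative to mod07570/+, the mod07570/L8 list had 0.971 times the number of peaks and 0.304 times the covered length. The 5 long chromosome arms had 2144 peaks in mod07570/+ and 1160 in mod07570/L8 (ratio 0.541), with a ratio of covered length of 0.310. The unplaced sequence had ratios of 0.637 for the number and 0.376 for the covered length, and chromosome 4 had ratios of 0.303 and 0.0559. Het scaffolds thus held 23.8% of the peaks and 37.2% of the covered length in mod07570/+, and 35.0% of the peaks and 36.2% of the covered length in mod07570/L8.

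**Figure D1:**
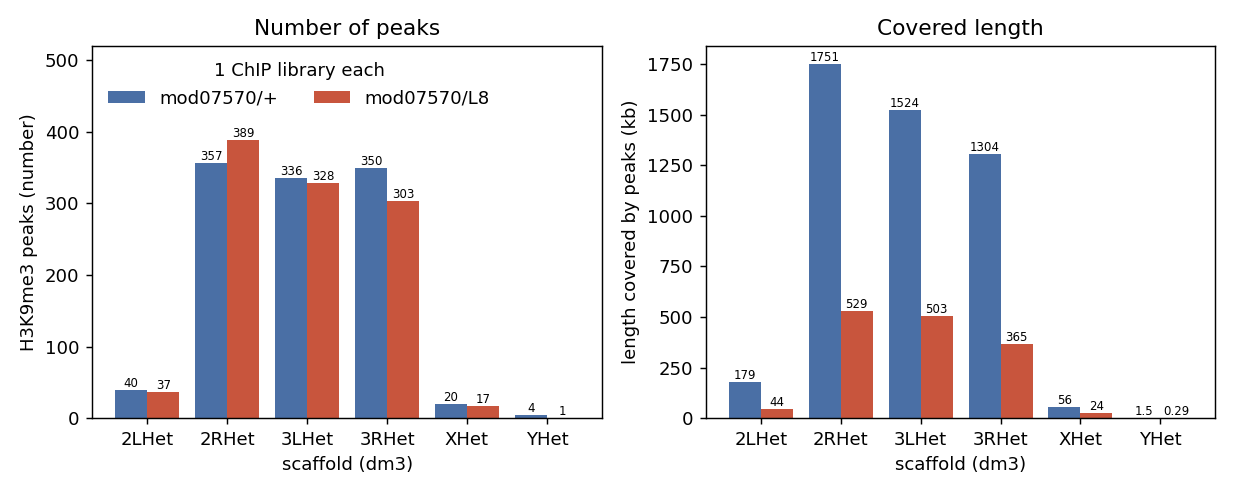
Number of H3K9me3 peaks (left) and length covered by peaks in kb (right) on each Het scaffold in mod07570/+ and mod07570/L8 ovaries, with 1 ChIP library per genotype and therefore no error bars. The numbers of peaks lie close together on 2LHet, 2RHet, 3LHet, 3RHet and XHet, while the covered length is lower in mod07570/L8 on all 6 scaffolds.

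The scaffolds of chromosomes 2 and 3 held nearly all of the peaks. 2RHet had 357 peaks covering 1751 kb in mod07570/+ and 389 peaks covering 529 kb in mod07570/L8. It was the only scaffold with more peaks in the mutant list (ratio 1.09), and its covered length had a ratio of 0.302. 3LHet had 336 and 328 peaks, which covered 1524 kb in mod07570/+ and 503 kb in mod07570/L8 (ratio 0.330). 3RHet had 350 and 303 peaks, which covered 1304 kb and 365 kb (ratio 0.280). On 2LHet, the 40 mod07570/+ peaks covered 179 kb and the 37 mod07570/L8 peaks 44.1 kb, a ratio of 0.246. Between the outermost peaks of a scaffold, mod07570/+ peaks took up 50.3% of the sequence on 2LHet, 53.4% on 2RHet, 59.7% on 3LHet and 51.8% on 3RHet. For mod07570/L8 the shares were 13.2%, 16.2%, 19.8% and 14.7%, so of these 4 scaffolds 3LHet had the densest cover in each list and 2LHet the sparsest.

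The scaffolds of the sex chromosomes contributed little. XHet had 20 peaks covering 56.4 kb in mod07570/+ and 17 peaks covering 24.5 kb in mod07570/L8, a ratio of the covered length of 0.434. Its median peak length was nearly the same in the lists, at 911 bp and 877 bp. A single mod07570/+ peak, from 168566 to 189320, held 36.8% of the covered length of XHet. Ovaries come from XX females, which do not normally carry a Y chromosome, and YHet had 4 peaks covering 1531 bp in mod07570/+ and 1 peak of 289 bp in mod07570/L8. The YHet peaks of mod07570/+ lay at 4446 to 4899, 137207 to 137624, 195308 to 195614 and 293915 to 294266. Their fold enrichments over the background of the peak caller were 4.35, 4.42, 2.85 and 2.41. The mod07570/L8 peak, from 137327 to 137615, lay within the second of these peaks and had a fold enrichment of 8.24. What gives rise to uniquely mapped reads on YHet in ovaries was not tested.

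Peaks on the Het scaffolds were longer in mod07570/+ than in mod07570/L8. The median length was 1887 bp (interquartile range 696 to 5020) in mod07570/+ and 779 bp (383 to 1667) in mod07570/L8, a ratio of 0.413. On the arms the medians were 645 bp and 634 bp, a ratio of 0.982. Chromosome 4 had a ratio of 0.424, near that of the Het scaffolds, and the unplaced sequence one of 0.635. The mean length had a ratio of 0.313 on the Het scaffolds and 0.574 on the arms. The median length had a ratio of 0.225 on 2LHet, 0.435 on 2RHet, 0.365 on 3LHet and 0.428 on 3RHet. The difference was greatest among the long peaks. In mod07570/+, 278 peaks of 5 kb or more made up 72.8% of the covered length, and 136 of these were at least 10 kb long. In mod07570/L8, 48 peaks reached 5 kb and made up 21.6% of the covered length, and 1 peak reached 10 kb. That peak lay on 3LHet and measured 11548 bp, whereas the longest mod07570/+ peak lay on 2RHet and measured 120792 bp.

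**Figure D2:**
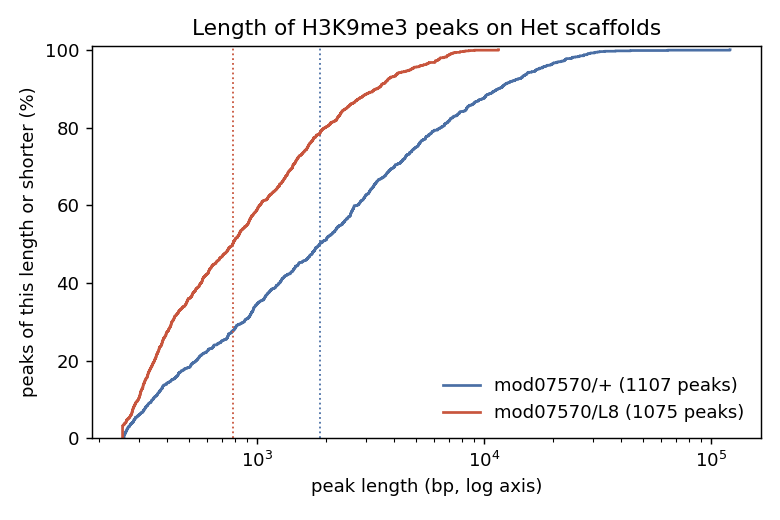
Cumulative share of the H3K9me3 peaks on Het scaffolds (y axis, percent) by peak length (x axis, bp, log scale) in mod07570/+ and mod07570/L8 ovaries, with dotted lines at the medians. The mod07570/L8 curve lies to the left, with a median of 779 bp against 1887 bp, and ends at 11548 bp.

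Of the 1107 mod07570/+ peaks on Het scaffolds, 548 were kept and 559 were lost in mod07570/L8. The kept share was 49.5% (95% Wilson interval 46.6 to 52.4), against 37.5% of all 4643 mod07570/+ peaks. The intervals given here cover counting error only, and neighbouring peaks of a library are not independent. The share varied little among the larger scaffolds, with 20 of 40 kept on 2LHet (50.0%, 35.2 to 64.8), 171 of 357 on 2RHet (47.9%, 42.8 to 53.1), 177 of 336 on 3LHet (52.7%, 47.3 to 58.0) and 169 of 350 on 3RHet (48.3%, 43.1 to 53.5). XHet kept 10 of 20 and YHet 1 of 4. The kept share was 24.95% on the arms (23.2 to 26.8), 22.5% on chromosome 4 (16.4 to 30.1) and 49.9% on the unplaced sequence (47.1 to 52.7). When 1 shared bp sufficed, the Het scaffolds and the unplaced sequence therefore had overlapping intervals, and both had higher shares than the arms. No test across replicates could be made.

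Few peaks were kept over most of their length. Only 178 Het peaks (16.1%, 14.0 to 18.4) were covered to at least 50% by mod07570/L8 peaks, against 18.5% of all mod07570/+ peaks. The share was 13.1% on the arms (11.7 to 14.6), whose interval overlaps that of the Het scaffolds. It was 31.1% on the unplaced sequence and 7.75% on chromosome 4. In base pairs, 1440906 of the 4816250 bp under mod07570/+ peaks on Het scaffolds lay under a mod07570/L8 peak as well, a share of 29.9%. The arms had 27.1%, the unplaced sequence 36.6% and chromosome 4 had 5.12%. The 548 kept peaks held 84.3% of the covered length of the mod07570/+ list on Het scaffolds, and mod07570/L8 peaks lay over 35.5% of it. Most of the length that was not covered in mod07570/L8 was thus inside peaks that were kept in part.

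Conversely, the mod07570/L8 peaks lay almost entirely inside mod07570/+ peaks. Of the 1075 mod07570/L8 peaks, 1062 (98.8%, 97.9 to 99.3) shared at least 1 bp with a mod07570/+ peak, against 91.3% of all 3075 mod07570/L8 peaks and 80.3% of those on the arms (77.9 to 82.4). The other 13 lay on 3RHet (6 peaks), 3LHet (4) and 2RHet (3). These were short, from 255 to 785 bp with a median of 288 bp, and their median fold enrichment was 3.97, against 788 bp and 5.28 for the 1062 inside mod07570/+ peaks. They lay 222 to 6232 bp from the nearest mod07570/+ peak. The longest of them, from 2480409 to 2481193 on 3RHet, had a fold enrichment of 3.41. The longest on 3LHet, from 153235 to 153592, had a fold enrichment of 4.33, and that on 2RHet, of 295 bp, one of 4.50. Together the 13 peaks covered 4239 bp. A shared bp is more readily had where mod07570/+ peaks take up more of the sequence. Between the outermost peaks they took up 50.3% to 59.7% of 2LHet, 2RHet, 3LHet and 3RHet. The share of the arms that they take up was not computed. The higher share inside mod07570/+ peaks on Het scaffolds is therefore not a comparison at equal cover, and the part that cover plays was not tested.

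A kept peak often appeared in pieces. Of the 548 kept peaks, 325 had 1 mod07570/L8 peak over them and 223 (40.7%) had 2 or more, with 39 at 5 or more. On the arms 28.8% of the kept peaks, and on the unplaced sequence 18.3%, had 2 or more pieces. At like length the parts were closer. Kept peaks of 5 kb or more had a median of 2 pieces on the Het scaffolds, the arms and the unplaced sequence, and of 1 on chromosome 4. The 223 split peaks account for 745 overlaps with mod07570/L8 peaks, beside the 559 mod07570/+ peaks that had none. Between successive pieces of the same mod07570/+ peak, the stretch without a mod07570/L8 peak had a median of 1510 bp (interquartile range 909 to 2914), and 153 of the 522 stretches were under 1000 bp. The 120792 bp peak of 2RHet was overlapped by 28 mod07570/L8 peaks, the longest of 3412 bp, which together covered 30.9% of it. Its fold enrichment was 4.50 in mod07570/+ and averaged 5.96 in the pieces.

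The longest mod07570/+ peaks of 2LHet, 3LHet, 3RHet and XHet were also split, with 12.5% to 45.8% of their length covered, whereas the longest of YHet (454 bp) was lost. On 3RHet, the longest mod07570/+ peak (1877270 to 1921341, 44072 bp, fold enrichment 4.52) held 6 mod07570/L8 peaks that covered 12.5% of it. On 3LHet, the longest (608033 to 641837, 33805 bp, fold enrichment 4.98) held 7 peaks covering 44.6%. The longest of 2LHet (243295 to 260809, 17515 bp, fold enrichment 3.16) held 5 peaks covering 35.9%, and the 20755 bp peak of XHet also held 5, which covered 45.8%. In each of these the mod07570/+ signal was listed as a single unbroken region and the mod07570/L8 signal as 5 or more separate ones.

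Each kept peak of 2 kb or more was divided into 10 equal parts. Along the kept peaks, the pieces of mod07570/L8 lay less often at the edges. In the 265 kept peaks of 5 kb or more, mod07570/L8 peaks covered on average 25.8% of the outermost part at the lower coordinate and 24.9% of that at the upper one. The 8 parts between had 34.5% to 40.6%. In the 147 kept peaks of 2 to 5 kb, the outermost parts had 25.6% and 27.5%, and those between had 30.4% to 38.8%. Cover was thus spread over the inner part of the peaks without a clear maximum at their centre.

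**Figure D3:**
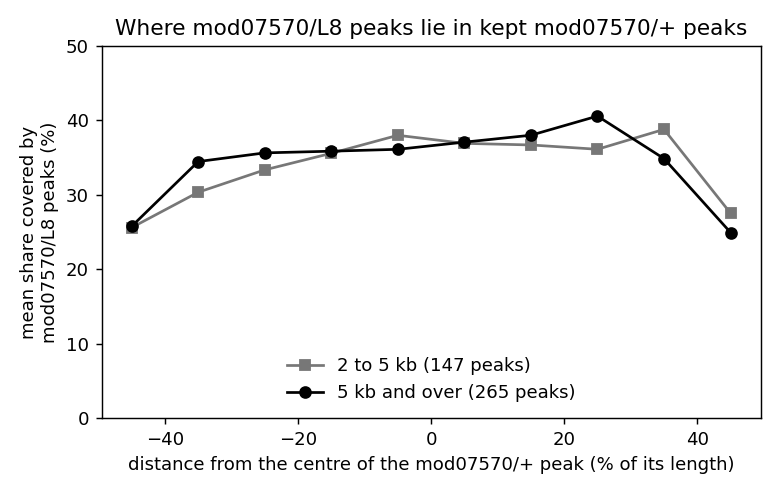
Mean share of each of 10 equal parts of a kept mod07570/+ peak on Het scaffolds that is covered by mod07570/L8 peaks (y axis, percent) against the distance of the part from the peak's centre (x axis, percent of the peak's length), for 147 peaks of 2 to 5 kb and 265 peaks of 5 kb or more. Both lines drop to between 24.9% and 27.5% in the outermost parts.

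Whether a Het peak was kept went with its length and its strength in mod07570/+. Kept peaks had a median length of 4722 bp (interquartile range 2012 to 9975) and a median fold enrichment of 3.78, and lost peaks had 928 bp (419 to 1853) and 2.41. By length, the kept share was 16.8% under 500 bp (34 of 202), 24.3% from 500 to 1000 bp, 31.9% from 1 to 2 kb, 55.7% from 2 to 5 kb and 95.3% at 5 kb or more (265 of 278). By fold enrichment, it was 3.74% under 2-fold (4 of 107), 26.1% from 2 to 3, 68.3% from 3 to 4, 84.8% from 4 to 6 and 85.4% at 6 or more (41 of 48). Among peaks under 1 kb the share was 9.47% below 3-fold and 58.5% at 4-fold or more. Among peaks of at least 5 kb it was 79.5% below 3-fold and 100% (120 of 120) at 4-fold or more. A kept peak needs only 1 shared bp, which a longer peak can have more readily, so part of the rise with length follows from the definition. By covered length, mod07570/L8 peaks lay over 14.6% of the Het peaks under 500 bp and 34.5% of those of 5 kb or more.

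**Figure D4:**
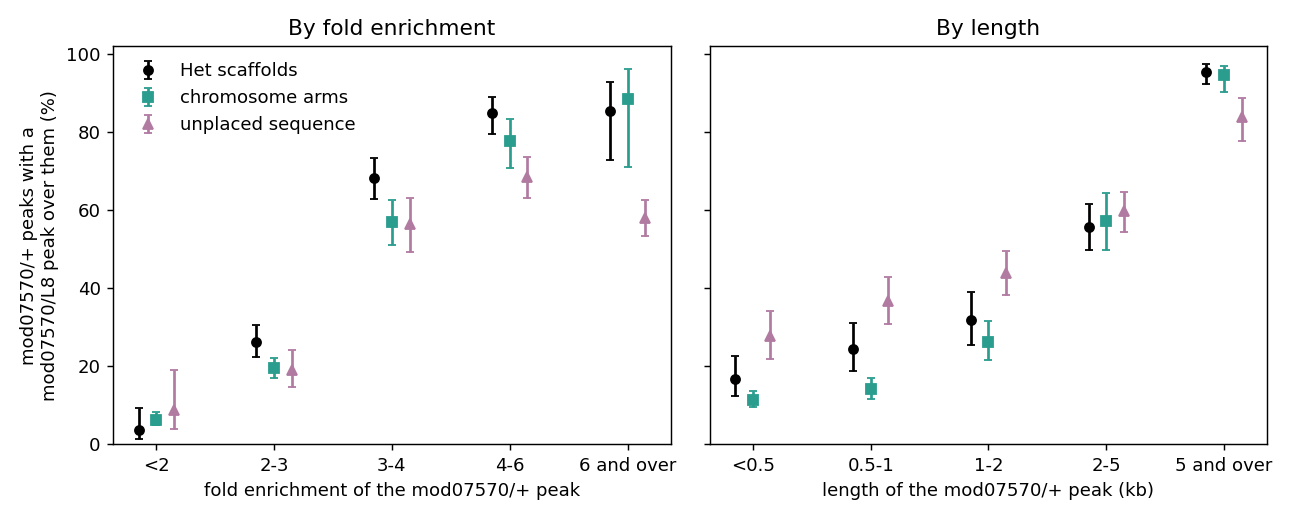
Share of mod07570/+ peaks with a mod07570/L8 peak over them (y axis, percent) by the fold enrichment (left) and the length (right) of the mod07570/+ peak, on Het scaffolds, chromosome arms and unplaced sequence, with 95% Wilson intervals for counting error. The share on Het scaffolds runs from 3.74% to 85.4% across the fold classes and from 16.8% to 95.3% across the length classes.

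At like strength the Het scaffolds stood nearer to the arms than in the pooled shares. From 2- to 3-fold, 26.1% of the Het peaks (22.2 to 30.5) and 19.5% of the arm peaks (17.0 to 22.2) were kept, and from 3- to 4-fold 68.3% (62.7 to 73.3) and 57.0% (51.1 to 62.7). From 4- to 6-fold the shares were 84.8% (79.5 to 88.9) and 77.6% (70.8 to 83.3), whose intervals overlap. Under 2-fold the arms had the higher share, with 6.33% (4.83 to 8.25) against 3.74% (1.46 to 9.22) on the Het scaffolds. At 6-fold or more the arms were higher as well, with 88.5% (71.0 to 96.0) against 85.4%. The intervals overlap in both of these classes. Among the longest peaks, of 5 kb or more, 95.3% of the Het peaks and 94.4% of the arm peaks were kept. Peaks of at least 3-fold made up 50.9% of the mod07570/+ peaks on Het scaffolds and 22.2% of those on the arms. The unplaced sequence differed at the top of the range, where 58.0% of its peaks of 6-fold or more were kept (53.3 to 62.6) against 85.4% on the Het scaffolds (72.8 to 92.8).

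Lost peaks were mostly short, weak and apart from any mod07570/L8 peak. The nearest mod07570/L8 peak lay a median of 4010 bp away, 34 of the 559 had one within 1000 bp, and 71 had none within 10 kb. Of the 13 lost peaks of 5 kb or more, none exceeded 6683 bp, and their median fold enrichment was 2.60. The longest lost peak measured 6683 bp and lay on 2RHet (fold enrichment 2.49). The longest lost peaks of the other scaffolds of chromosomes 2 and 3 and of XHet were 2517727 to 2523954 on 3LHet (6228 bp, 2.60), 2368119 to 2373793 on 3RHet (5675 bp, 3.45), 18008 to 22516 on 2LHet (4509 bp, 2.98) and 134189 to 137801 on XHet (3613 bp, 2.41).

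Some strong peaks were lost as well. The mod07570/+ peak with the highest fold enrichment of all Het scaffolds, from 2166580 to 2168835 on 3LHet, had a fold enrichment of 8.87, a mean pileup of 143 fragments and a -log10 q of 97.1. No mod07570/L8 peak lay over it, and the nearest was 6729 bp away. In all, 7 peaks of 6-fold or more were lost, 4 of them on 3LHet, 2 on 2RHet and 1 on 3RHet, with lengths from 343 to 4503 bp. By contrast, the strongest peak of 3RHet (254129 to 254770, fold enrichment 8.80) was kept, with a mod07570/L8 peak from 254173 to 254741 and a fold enrichment of 10.0. The strongest of 2RHet (29111 bp, 7.98) held 4 mod07570/L8 peaks that covered 68.2% of it at a mean fold enrichment of 8.76. The strongest of 2LHet (45047 to 48124, 6.19) held a mod07570/L8 peak over 96.2% of its length at a fold enrichment of 9.89, and the strongest of XHet (202294 to 203176, 4.19) one over 77.1% at 4.26.

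The peaks listed for mod07570/L8 were not weaker than those of mod07570/+ in the fold enrichment of the peak caller. Their median pileup, not scaled to depth, was lower on Het scaffolds, at 17.21 fragments against 37.65 in mod07570/+. The median fold enrichment on Het scaffolds was 5.26 (interquartile range 3.90 to 7.20) in mod07570/L8 and 3.04 (2.34 to 3.97) in mod07570/+, a difference of 2.22. The arms had a difference of 1.67, the unplaced sequence 1.23 and chromosome 4 had 1.17, so that of the Het scaffolds was the largest of these parts. Over all peaks of the genome it was 2.14. That pooled value includes the Het peaks, which were 23.8% of the mod07570/+ list and 35.0% of the mod07570/L8 list. Without the 1 that MACS2 adds to pileup and background, the Het difference was 3.73. The median fold enrichment was higher in mod07570/L8 on each of the 6 scaffolds, by 1.68 on XHet, by 1.96 to 2.53 on the scaffolds of chromosomes 2 and 3, and by 4.64 on YHet with its 1 peak. The highest fold enrichments of mod07570/L8 were 16.8 on 2RHet, 14.7 on 3LHet (1420670 to 1421938), 14.2 on 3RHet (51234 to 51788), 12.5 on 2LHet (361414 to 362405), 8.24 on YHet and 5.89 on XHet (159150 to 161297). The mod07570/+ peaks around these had 5.69, 6.75, 6.31, 4.02, 4.42 and 3.57.

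The kept peaks were also compared peak by peak. The mod07570/L8 value was averaged only over the shared bp, a median of 35.4% of a kept peak. The mod07570/+ value is that of the whole peak, its weaker stretches included. Over the 548 kept peaks, the fold enrichment was higher in the mod07570/L8 peaks than in the mod07570/+ peak they overlapped in 494 (90.1%), with a median difference of 1.77. The direction was the same in most kept peaks elsewhere, with 83.7% on the arms, 78.1% on chromosome 4 and 67.4% on the unplaced sequence. Across these peaks, which share their libraries, the fold enrichments of the lists had a Spearman correlation of 0.560 (Pearson 0.559, n = 548). On the arms the correlation was 0.794 over 535 kept peaks, and on the unplaced sequence 0.372 over 623. Scaled to the reads used, the median pileup of the kept peaks was 7.94 fragments per 1000000 ChIP reads in mod07570/+ and 17.6 in mod07570/L8, and the median ratio was 2.24. The ratio was 2.34 in the 46 kept peaks that mod07570/L8 peaks covered to at least 90%. A mod07570/L8 peak is listed only where its pileup is high, so the direction of all these comparisons is partly set by that choice. The counts, differences and ratios over kept peaks are a description and support nothing.

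**Figure D5:**
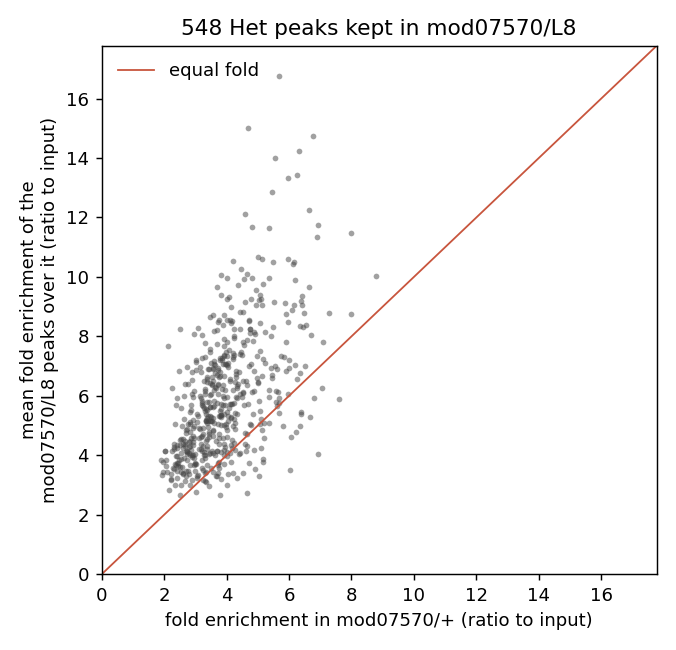
Fold enrichment, as the peak caller gives it, of the 548 kept mod07570/+ peaks on Het scaffolds (x axis) against the mean fold enrichment of the mod07570/L8 peaks over them, weighted by shared length (y axis). Each point is a mod07570/+ peak and the line marks equal values. Above the line lie 494 of the 548 points.

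These values have an observed floor in the mod07570/L8 list. The lowest mean pileup of a mod07570/L8 peak on Het scaffolds was 7.00 fragments, which is 3.37 times the genomic background of that library. In mod07570/+, 574 of the 1107 Het peaks (51.9%) had a pileup under 3.37 times the background of their own library, down to 1.75 times. Of these, 22.1% (18.9 to 25.7) were kept, and of the 533 peaks at or above this level 79.0% (75.3 to 82.2). The peaks at or above it covered 3724 kb, and mod07570/L8 peaks lay over 35.8% of this length. The part that unequal depth plays in the lost peaks and in the lower covered length was not tested, since reads cannot be thinned in a peak list. A higher fold in a list that holds only peaks past this floor does not show more of the mark in mod07570/L8, and the effect of removing reads at the same position, which took 70.2% of the ChIP reads in mod07570/+ and 62.9% in mod07570/L8, was not tested either.

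The share of ChIP reads under the peaks of the Het scaffolds was 16.8% in both lists. It was computed as pileup times length over the fragment length. The share is of the reads left after those at the same position were removed. In mod07570/+ the reads under Het peaks were spread over 4816 kb and in mod07570/L8 over 1466 kb. No background was subtracted, and a longer cover holds more background reads, so an equal share is not an equal enriched share. By scaffold the shares were 6.24% and 5.87% on 2RHet, 5.51% and 6.26% on 3LHet, 4.28% and 3.93% on 3RHet, 0.563% and 0.501% on 2LHet, and 0.186% and 0.272% on XHet. The arms had 18.0% in mod07570/+ and 16.3% in mod07570/L8, the unplaced sequence 20.5% and 19.0%, and chromosome 4 had 1.56% and 0.342%. The Het share thus differed between the lists by less than that of the arms, the unplaced sequence or chromosome 4, as a description of 1 library each.

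The lower cover of mod07570/L8 extended over whole scaffolds. In windows of 100 kb along 2LHet, 2RHet, 3LHet and 3RHet, mod07570/+ peaks covered 16.7% to 90.2% of a window (median 57.0%) and mod07570/L8 peaks 1.74% to 43.1% (median 15.6%). The cover was lower in mod07570/L8 in all 85 windows, and the ratio of mod07570/L8 to mod07570/+ ranged from 0.082 to 0.714 with a median of 0.290. Windows with more cover in mod07570/+ also had more in mod07570/L8, with a Spearman correlation over the 85 windows of 0.795. The correlation was 0.842 on 2RHet (32 windows), 0.836 on 3RHet (25) and 0.541 on 3LHet (25). When peaks less than 1000 bp apart were joined, the Het peaks formed 743 domains in mod07570/+ and 902 in mod07570/L8, the longest of 139393 and 22734 bp.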

How the data were processed

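H3K9me3 ChIP and input DNA of mod07570/+ and mod07570/L8 ovaries was sequenced as single reads of 150 bp, 1 library each. Per the study's methods the authors mapped reads to dm3 with Bowtie and kept those that map once (the submitters' processing notes name Bowtie2), and per the file headers they called broad peaks with MACS2 2.2.7.1 against the input, keeping 1 read per position, with q cut-offs of 0.05 for narrow and 0.1 for broad regions. The deposited pileup signal is the mean number of extended ChIP fragments over a peak. The deposited fold enrichment is a ratio of pileup to a background, with 1 added to both. The lowest background derived from the values was 11.46 fragments in mod07570/+ and 2.077 in mod07570/L8. These are the genomic backgrounds of the libraries (11.47 and 2.078), so the genomic background acts as a lower limit. For peaks at this limit the fold enrichment restates the pileup over the genomic background and holds no local input value. The deposited -log10 p and -log10 q columns had lost their names and were told apart by MACS2's column order. Peak length is the end minus the start plus 1 in the deposited lists.

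Peaks were overlapped by at least 1 bp with Python 3.11.15, numpy 2.4.6 and pandas 2.3.3. The code was tested on simulated intervals, and bedtools 2.31.1 gave the same number of overlapped peaks. Wilson intervals came from scipy 1.17.1 and figures from matplotlib 3.10.9. No filter was applied. Named peaks are, per scaffold, the longest and the strongest mod07570/+ peak, the longest lost peak, the strongest mod07570/L8 peak and the longest mod07570/L8 peak outside mod07570/+ peaks. Other peaks named were chosen after their values were seen. The members, classes and alternatives were chosen with earlier results of these data known. Alternatives were stricter q, a minimum fold, another overlap, joined peaks, equal numbers of peaks, and leaving out YHet. Positions on 2RHet are not reported here. Sequences and gene annotation of dm3 were not used here, nor were the 21 RNA tables, which hold no scaffold positions.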

Additional observations from a re-analysis of the deposited data

How the results depend on the processing

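The ratios of peak number, covered length and median length of the Het scaffolds moved by less than 1.5 times under every alternative run for them. The ratio of covered length lay between 0.288 (-log10 q of at least 5) and 0.314 (peaks under 1000 bp apart joined). It was 0.306 with the 1075 mod07570/+ peaks of highest -log10 q. These are nearly all of the 1107, so that alternative could move the ratio and the kept share only little. None of the alternatives evened out the depths of the libraries. The ratio of peak number rose from 0.971 to 1.07 with a fold of at least 2 and to 1.21 with peaks joined, so whether mod07570/L8 has fewer or more Het peaks depends on the setting. The kept share of 49.5% was 16.1% when 50% of a peak had to be covered, 52.6% when a peak within 1000 bp counted, 56.5% with a -log10 q of at least 5 and 54.4% with a fold of at least 2. It was 51.0% with equal numbers of peaks. The difference of the median fold enrichment, 2.22, was 3.73 without the 1 that MACS2 adds to pileup and background, an alternative chosen after seeing the data, and 1.87 over kept peaks only. The 1 weighs more in the shallower library. No paired analysis was possible because each genotype has 1 ChIP library. Depth can limit which mod07570/L8 regions were listed, to an extent that was not tested. Neither amounts of the mark nor replicate error can be had from these lists.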
